A study of Mus musculus with 9 samples.

Results

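From the 55414 genes of the deposited count table, 10 genes of antioxidant defence were followed in mouse retina: Nfe2l2, Nqo1, Gclc, Gclm, Gsr, Gpx1, Gpx4, Txnrd1, Srxn1 and Prdx1. They were taken by gene name as genes of the glutathione and thioredoxin systems and targets of the transcription factor NRF2, without metallothioneins and heme oxygenase. All 10 passed the filter on low counts, along with 17272 genes in all. RNA of whole retina from Balb/c mice was sequenced in 9 libraries. The groups, with 3 libraries each, were control, retina after damaging light, and retina after such light combined with A74 (below, the A74 group). Missing from the labels are age and sex, how long the light lasted, and the identity, dose and vehicle of A74, and the genotype field repeats the library name. The title names P2RX7, a channel opened by ATP, as the target of inhibition in retinal degeneration caused by light. Nothing in the labels says that replicates were separate animals, so p-values measure only the spread between these samples, which may be technical.

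NRF2, the product of Nfe2l2, is held low in unstressed cells by KEAP1, which directs it to degradation. Oxidants and electrophiles release it, and it then pairs with small MAF proteins on antioxidant response elements of its target genes. Its control lies largely at the protein, so its own mRNA can stay level while targets rise. In the retina, photoreceptors combine intense light, high oxygen use and easily oxidised lipids, and Müller glia are a main store of glutathione. Light damage in albino mice is a common model of oxidative photoreceptor loss.

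Of the 10 genes, 5 rose with light damage and none fell, where 25.8% of all genes tested were called at an adjusted p under 0.05. The same 5 were lower in the A74 group than in light damage, where 18.3% of all genes were called. These counts depend on the fit: DESeq2 called 3 with light, and for A74 against light damage 2 were called with Y-linked transcripts as a term and 2 without light damage replicate 2. Among the genes called, the largest changes were in Gpx1, a selenoenzyme that reduces hydrogen peroxide with glutathione, and Prdx1, a cytosolic peroxiredoxin that reduces peroxide and is recycled by thioredoxin. Nqo1, at few counts, had estimates of similar size that were not called. Gpx1 rose by 55.0% and Prdx1 by 40.9% with light. Gclm, Txnrd1 and Srxn1 rose by 13.9 to 19.5%. No member was called between the A74 group and control, which does not show that the levels are equal.

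Sequences before the transcription start were read for the antioxidant response element core, TGACNNNGC on either strand, where N is any base. They are shown because they show which of the 5 genes that rose carry that core close to the start. RefSeq promoter windows (GRCm38.p6, 250 bases before to 50 after the start) matched 8 of the 10 members by symbol, Gclc and Gsr being the ones without an entry. Of these 8, 5 held the core in at least 1 window (Nfe2l2, Gclm, Txnrd1, Srxn1 and Prdx1), against 14.0% of the 27025 genes in the table. The stretches below run 5′ to 3′ on the strand of the gene. Capitals mark the core in Gclm, Txnrd1 and Prdx1, all on the opposite strand, and in Srxn1 the motif TGANTCA, the form bound by AP-1 factors.
Prdx1, chr4:116685446-116685494, plus strand: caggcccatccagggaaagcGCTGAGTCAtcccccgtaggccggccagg
Gclm, chr3:122245403-122245451, plus strand: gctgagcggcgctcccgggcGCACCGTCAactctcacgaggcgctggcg
Txnrd1, chr10:82859094-82859142, plus strand: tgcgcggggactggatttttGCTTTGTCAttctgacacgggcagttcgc
Srxn1, chr2:152105459-152105505, plus strand: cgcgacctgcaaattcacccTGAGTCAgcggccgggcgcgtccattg

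The Prdx1 core begins 133 bases before the start and overlaps a TGANTCA match, so these letters fit either motif. The cores of Gclm and Txnrd1 begin 134 and 92 bases before the start and overlap none. The Txnrd1 core is in 1 of 3 windows of that gene. In Srxn1 the core lies after the start and is not printed, and TGANTCA matched at 102 and 45 bases before it. TGANTCA was in 2 of the 8 members, Srxn1 and Prdx1, against 8.97% of all genes. Gpx1, with the largest called change, matched neither motif in its window, as did Nqo1 and Gpx4. A match is a string of letters and does not show binding, and none was tested against the expression values.

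Library totals ran from 14787972 to 18740434 counts. The labelled tissue fits its markers, with 14 rod genes summing to 63067 to 69009 CPM (counts scaled to a common library size, with TMM factors) in control. That sum was 37239 to 54024 CPM with light damage and 61496 to 64575 in the A74 group. Microglia and macrophage markers summed to 59.2 to 62.7, 189 to 332 and 64.9 to 92.4 CPM in the same order, and all 13 were called higher with light and lower with A74. Reactive glia markers summed to 80.5 to 86.8, 330 to 492 and 86.6 to 104 CPM, with 7 of 7 called both ways, and 8 of 9 Müller glia markers were also called both ways. Among neutrophil markers, Ly6g, Mpo and Elane had 0 counts, and the 1 of 7 that passed the filter was called higher with light and lower with A74. Their sum was 0.845 to 1.34 CPM in control, 2.82 to 4.21 with light damage and 1.33 to 2.63 in the A74 group. Endothelium and pericyte markers summed to 413 to 454, 571 to 699 and 437 to 460 CPM, with 2 of 8 called higher with light and 3 lower with A74. Of 6 pigment epithelium markers tested, 1 was called lower with A74, and none of 4 red blood cell markers was called (sum at most 27.2 CPM). In a bulk sample, fewer cells of a type and less RNA per cell cannot be told apart. Some libraries stand apart. In control replicates 1 and 2 and light damage replicates 1 and 2, Y-linked transcripts summed to 4249 to 5832 counts, and the other 5 libraries had 0. Xist was high in control replicate 3 and the 3 A74 libraries. Light damage replicate 3 had neither, and lens genes varied from library to library (up to 784 CPM, in A74 replicate 1). Genes of anterior eye tissue summed to 183 to 275 CPM in the libraries with Y-linked transcripts. They summed to 12.5 CPM in control replicate 3, 12.7 in light damage replicate 3, and 138, 15.9 and 13.7 in the A74 group. Within control and light damage, Y-linked transcripts and anterior tissue therefore cannot be told apart. The A74 group therefore differs in Y-linked transcripts from light damage and from control as well.

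**Figure D1:**
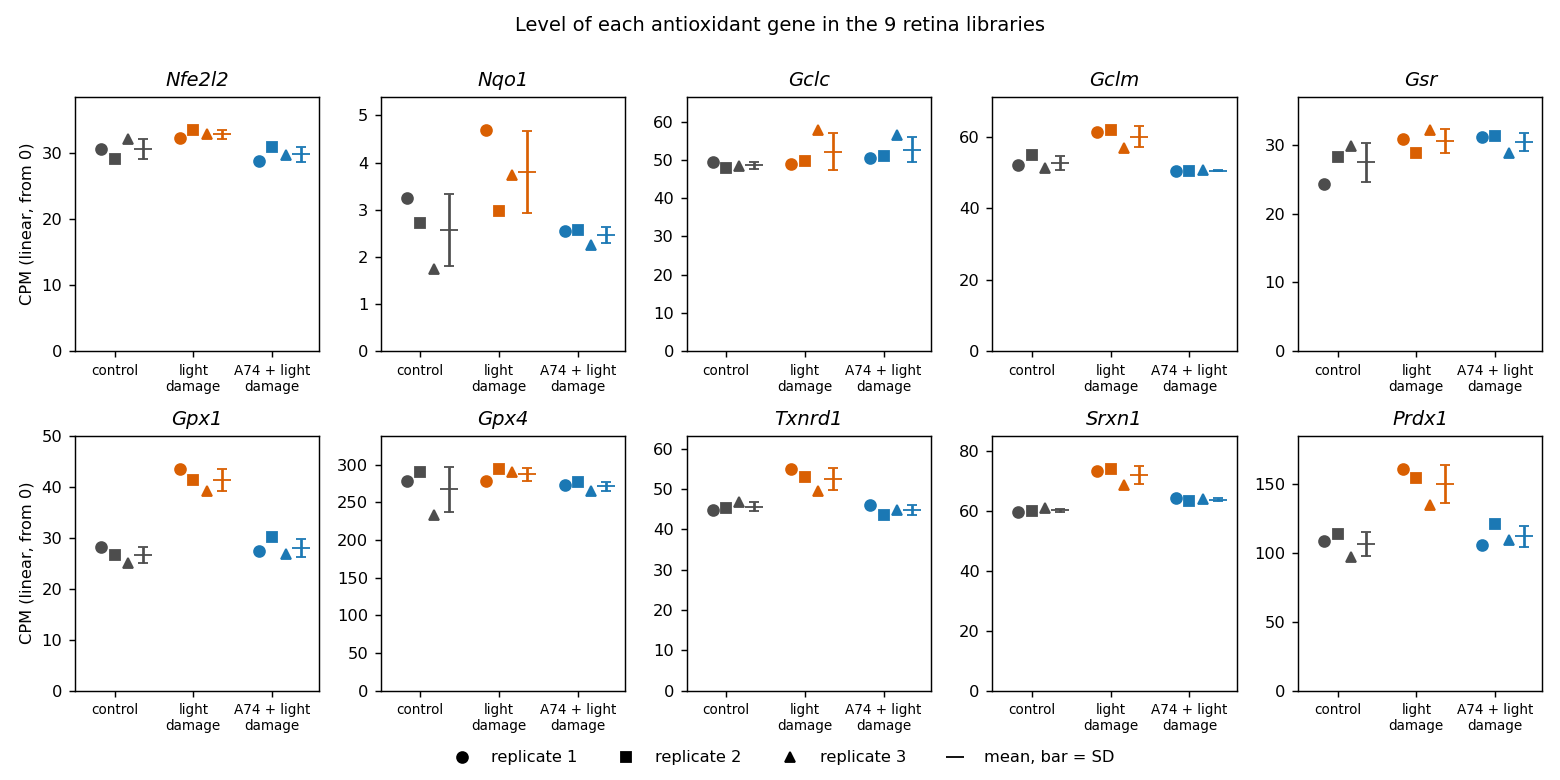
Level of each of the 10 genes in CPM (linear axis from 0) in the 9 libraries, with a point per library and the mean and SD beside each group. Gpx1 lies at 39.3 to 43.6 CPM in light damage and at 25.1 to 30.1 in the other groups; Gclc and Gsr overlap between all groups except Gclc between control and A74.

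Per kilobase of exon (GENCODE M21 union lengths, which overstate the length of the transcripts in use), Gpx4 was the most abundant member in control at 155 ± 17.5 CPM per kb (SD, n = 3). It encodes the peroxidase that reduces lipid peroxides in membranes. Prdx1 followed at 35.0 ± 2.87, then Srxn1 at 21.4 ± 0.200 and Gpx1 at 18.55 ± 1.11 CPM per kb. With light damage the last of these stood in the other order, Gpx1 at 28.75 ± 1.48 and Srxn1 at 25.5 ± 1.04 CPM per kb. Gclm and Nfe2l2, at 8.37 ± 0.298 and 8.07 ± 0.389 CPM per kb in control, did not differ beyond their spread. Nqo1 was lowest at 1.66 ± 0.489 CPM per kb and had 26 to 78 counts in a library. The pseudogene Gpx4-ps2 had 459 to 822 counts, so reads may be divided between it and Gpx4 and the level of Gpx4 is uncertain to that extent.

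The regulator came first. Nfe2l2 had 30.7, 29.1 and 32.1 CPM in control, 32.2, 33.5 and 32.8 with light damage, and 28.8, 30.9 and 29.6 in the A74 group. The light damage libraries lay just above control and above the A74 group, without overlap, by less than the test could call. The log2 fold change was 0.10 for light damage against control (95% interval -0.05 to 0.26, edgeR adjusted p = 0.347), a change of at most 1.19-fold at the upper bound. For A74 against light damage it was -0.14 (interval -0.30 to 0.01, edgeR adjusted p = 0.198).

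Nqo1 encodes a quinone reductase and is a standard NRF2 target. Its levels were 3.25, 2.71 and 1.75 CPM in control, 4.69, 2.96 and 3.74 with light damage, and 2.55, 2.57 and 2.26 in the A74 group. Control and light damage overlapped, and all A74 libraries were below all light damage libraries. The log2 fold change of 0.56 with light had an interval of 0.03 to 1.09 (edgeR adjusted p = 0.115), and that of A74 against light damage was -0.62 (interval -1.15 to -0.09, edgeR adjusted p = 0.0965). Neither was called, and the interval with light reaches 2.13-fold.

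Glutathione synthesis begins with glutamate-cysteine ligase, made of the catalytic subunit Gclc and the modifier subunit Gclm. Gclm had 52.1, 54.8 and 51.2 CPM in control, 61.4, 61.9 and 56.7 with light damage, and 50.4, 50.4 and 50.6 in the A74 group. The light damage libraries were above all others, and the A74 libraries were below control, a difference that was not called (log2 fold change -0.06, edgeR adjusted p = 0.690). The SD of the A74 libraries, 0.195% of their mean, is smaller than the counting noise of 762 to 843 counts and does not measure precision. With light, Gclm rose by 0.19 (log2; edgeR adjusted p = 0.0370, SE 0.06), and in the A74 group it was lower than with light damage (log2 fold change -0.25; edgeR adjusted p = 0.0119, SE 0.06). The rise was not called without control replicate 1 or 3 or light damage replicate 1 or 2 (edgeR adjusted p = 0.104, 0.102, 0.0866 and 0.109), nor by DESeq2 (DESeq2 adjusted p = 0.0689). When light damage replicate 2 was dropped, the lower level with A74 missed the threshold (edgeR adjusted p = 0.0529). Gclc had 49.5, 47.8 and 48.4 CPM in control, 49.0, 49.7 and 57.8 with light damage, and 50.6, 51.0 and 56.4 in the A74 group. Light damage replicate 3 and A74 replicate 3 were its high libraries. Its log2 fold change was 0.10 with light (interval -0.06 to 0.26, edgeR adjusted p = 0.345) and 0.01 for A74 against light damage (interval -0.14 to 0.17, edgeR adjusted p = 0.921). Within a library, the log2 ratio of Gclm to Gclc averaged 0.12 ± 0.07 in control, 0.20 ± 0.20 with light damage and -0.06 ± 0.08 in the A74 group (SD, n = 3), with exact permutation p of 0.4 and 0.3 (2-sided), in a design of 3 against 3 whose smallest p is 0.1 and which cannot reach the threshold.

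Glutathione reductase, the product of Gsr, returns oxidised glutathione to its reduced form with NADPH. Gsr had 24.4, 28.2 and 29.9 CPM in control, 30.8, 28.8 and 32.2 with light damage, and 31.1, 31.3 and 28.9 in the A74 group. All 3 groups overlapped, and control replicate 1 was the low library. The log2 fold change with light was 0.15 (interval -0.03 to 0.34, edgeR adjusted p = 0.216), and that of A74 against light damage was -0.01 (interval -0.19 to 0.18, edgeR adjusted p = 0.972).

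Of the glutathione peroxidases, Gpx1 had 28.3, 26.7 and 25.1 CPM in control, 43.6, 41.4 and 39.3 with light damage, and 27.4, 30.1 and 26.8 in the A74 group. Every light damage library was above every other, while control and A74 overlapped. Gpx1 rose with light by 0.63 (log2; edgeR adjusted p = 5.43e-05, SE 0.08), a fold of 1.55 with an interval of 1.38 to 1.74. Against light damage the A74 group stood at -0.56 (log2; edgeR adjusted p = 0.000274, SE 0.08), and against control 0.07 (interval -0.10 to 0.24, edgeR adjusted p = 0.709). Gpx4 had 279, 290 and 233 CPM in control, 278, 294 and 290 with light damage, and 273, 277 and 265 in the A74 group. Control replicate 3 was low, and control overlapped the other groups. Its log2 fold change was 0.10 with light (interval -0.05 to 0.25, edgeR adjusted p = 0.313) and -0.08 with A74 against light damage (interval -0.23 to 0.07, edgeR adjusted p = 0.454). The log2 ratio of Gpx1 to Gpx4 in a library was -3.44 to -3.21 in control, -2.88 to -2.67 with light damage and -3.32 to -3.20 in the A74 group. The light damage range was apart from the others, with an exact permutation p of 0.1 in each comparison, the smallest that 3 against 3 allow (0.2 adjusted over the 8 ratio tests made, which were chosen after the values were seen).

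In the thioredoxin system, Prdx1 removes peroxide, Txnrd1 encodes the cytosolic selenoenzyme that reduces thioredoxin, and Srxn1 encodes sulfiredoxin, which repairs overoxidised peroxiredoxins. Prdx1 had 108, 114 and 96.9 CPM in control, 161, 154 and 135 with light damage, and 106, 121 and 109 in the A74 group. All light damage libraries were above all others. Prdx1 rose by 0.50 with light (log2, SE 0.08, edgeR adjusted p = 0.000331) and stood at -0.42 with A74 against light damage (edgeR adjusted p = 0.00186, SE 0.08). Srxn1 had 59.8, 60.1 and 60.9 CPM in control, 73.3, 74.005 and 68.6 with light damage, and 64.3, 63.3 and 63.9 in the A74 group. The A74 libraries lay between the other groups and overlapped neither. Srxn1 rose by 0.26 with light (log2, SE 0.06, edgeR adjusted p = 0.00415), and A74 against light damage gave -0.17 (SE 0.06, edgeR adjusted p = 0.0464). A74 against control gave 0.08 (interval -0.04 to 0.21, edgeR adjusted p = 0.520), which was not called. The log2 ratio of Srxn1 to Prdx1 averaged -0.82 ± 0.13 in control, -1.06 ± 0.08 with light damage and -0.81 ± 0.11 in the A74 group (SD, n = 3), with an exact permutation p of 0.1 (0.2 adjusted) in each comparison. The ratio was lower in every light damage library than in any other, in a design that cannot pass the threshold.

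Txnrd1 had 44.9, 45.3 and 46.9 CPM in control, 55.0, 53.2 and 49.5 with light damage, and 46.0, 43.5 and 44.8 in the A74 group. Light damage was above all others, with replicate 3 nearest to them. Txnrd1 rose by 0.20 with light (log2, SE 0.07, edgeR adjusted p = 0.0306) and was lower in the A74 group than with light damage (-0.23, SE 0.07, edgeR adjusted p = 0.0212). The rise was not called without control replicate 1 or 2 or light damage replicate 1 or 2 (edgeR adjusted p = 0.101, 0.0832, 0.101 and 0.0793), nor by DESeq2 (DESeq2 adjusted p = 0.0591). The lower level with A74 was not called without A74 replicate 2 or 3 or light damage replicate 1 or 2 (edgeR adjusted p = 0.0879, 0.0577, 0.0923 and 0.0710). The ratio of Txnrd1 to Gsr, the reductases of both systems, averaged 0.74 ± 0.12, 0.78 ± 0.14 and 0.56 ± 0.08 (log2, SD, n = 3) in control, light damage and the A74 group, with exact permutation p of 0.9 and 0.2. The lower Srxn1 level with A74 was not called in 13 of 17 alternatives, including every fit that left out a single library except control replicate 3 or light damage replicate 3, with edgeR or DESeq2 adjusted p from 0.0504 to 0.254 in those 13 and 0.0206 at the lowest in any.

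**Figure D2:**
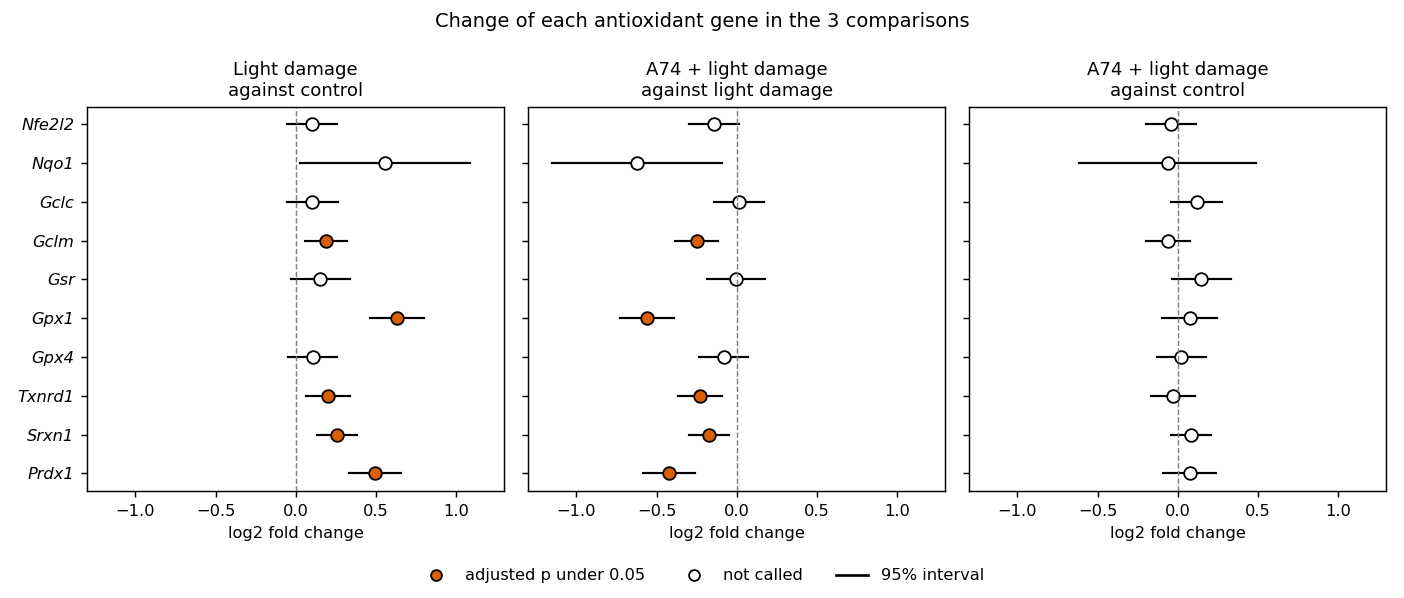
Log2 fold change of each gene in the 3 comparisons, with its 95% interval from the edgeR fit; filled points have an adjusted p under 0.05. Light damage against control has 5 filled points above 0, A74 against light damage has the same 5 genes below 0, and A74 against control has none.

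By count, 5 of 10 members were called in light damage against control, all higher, where 25.8% of all genes tested were called, 13.0% higher and 12.8% lower. The median log2 fold change of the members was 0.20, beside 0.01 over all genes. In A74 against light damage 5 of 10 were called, all lower, where 18.3% of all genes were called, 9.19% lower and 9.07% higher. The median was -0.20 there, beside -0.0003 over all genes. In A74 against control edgeR called 0 of 10, where 0.892% of all genes were called, 0.591% higher and 0.301% lower, and DESeq2 also called 0. At an unadjusted p under 0.05 stood 6, 6 and 0 members in these comparisons, beside 37.4%, 32.3% and 15.9% of all genes. Libraries did not overlap for 6 members with light damage against control, all higher, where 20.6% of all genes were apart upward and 20.0% downward. In A74 against light damage 8 members were apart, all lower, beside 17.7% of all genes downward and 17.5% upward. In A74 against control Gclc and Srxn1 were apart upward and Gclm downward, beside 11.8% and 11.0% of all genes. The comparisons share the light damage libraries, so a high or low value in those enters both with opposite sign.

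Gpx1 and Prdx1 were called in light damage against control in 18 of 18 alternative fits that kept at least 2 libraries a group. In A74 against light damage they were called in 17 of 17. Restricted to libraries without Y-linked transcripts, 3 A74 libraries against 1 light damage library gave -0.48 for Gpx1 and -0.27 for Prdx1. The spread of that light damage library, replicate 3, is assumed to be that of the other groups. It had 1 Xist count, against 17227 to 18172 in the A74 libraries. Xist thus separates the A74 group from light damage in this fit and with the Y-linked term, so neither compares matched libraries. Among the libraries with Y-linked transcripts, 2 light damage against 2 control, the log2 fold change was 0.63 for Gpx1 and 0.50 for Prdx1, and in the 1 against 1 without them it was 0.64 and 0.48. Gclm, Txnrd1 and Srxn1 had 0.21, 0.26 and 0.30 in the 2 against 2, and 0.15, 0.08 and 0.17 in the 1 against 1. In the 3 A74 against 1 light damage they had -0.17, -0.14 and -0.10. The 1 against 1 has no replicates and sets a control library with 22253 Xist counts against a light damage library with 1. With Y-linked transcripts as a term, 2 of 10 members were called in A74 against light damage, Gpx1 at -0.48 (edgeR adjusted p = 0.00663) and Prdx1 at -0.28 (edgeR adjusted p = 0.0389). Gclm, Txnrd1 and Srxn1 had -0.19, -0.21 and -0.15 in that fit (edgeR adjusted p = 0.152, 0.152 and 0.254). In the same fit 5 members were called with light damage, and 0 in A74 against control, where 96 of 17272 genes were called. There Gpx1, Gpx4 and Prdx1 stood at 0.16, 0.11 and 0.22, beside 0.07, 0.02 and 0.07 without the term. Gclc and Gsr came nearer to control, at 0.04 and 0.05 beside 0.12 and 0.15. Dropping A74 replicate 1 and light damage replicate 3 together left 5 members called with light damage and 5 in A74 against light damage. In the latter comparison 4456 of 17272 genes were then called, beside 3153 in the main fit, so the share of all genes rose while that of the members did not.

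**Figure D3:**
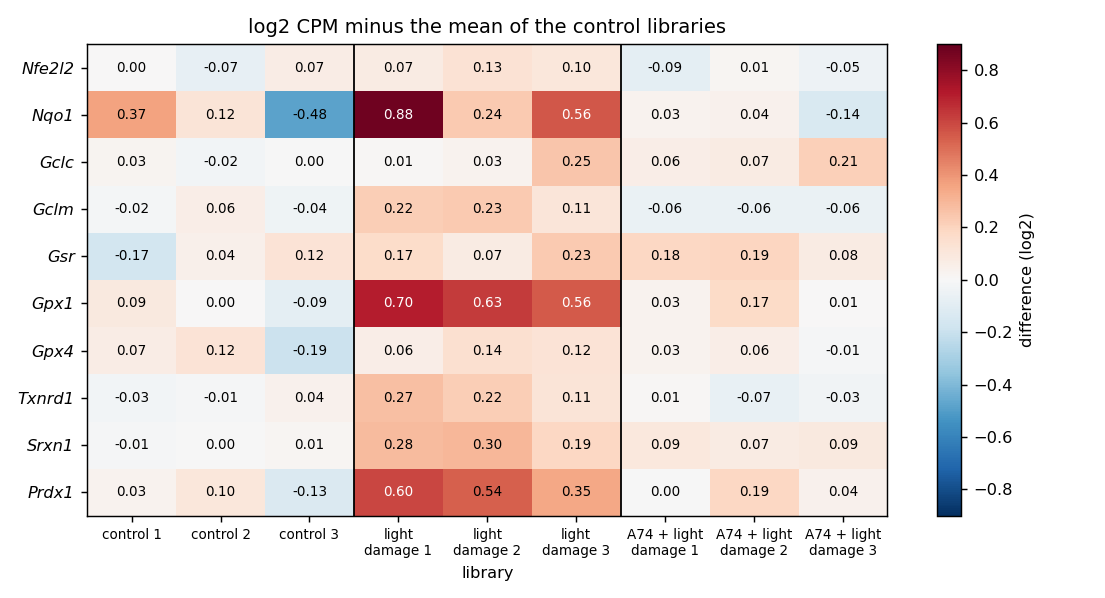
Log2 CPM of each gene in each library minus its mean over the control libraries. In the light damage columns Gpx1 reads 0.70, 0.63 and 0.56 and Prdx1 0.60, 0.54 and 0.35; the A74 columns of the same genes read at most 0.19.

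Each light damage library had 8 or 9 of the 10 members above the highest control library and 0 below the lowest. The A74 libraries had 2 to 5 above and 2 below. The share of all genes outside the control range was not counted for single libraries, so these numbers are description only. Of the light damage libraries, replicate 3 was the lowest in Gpx1, Prdx1, Gclm, Txnrd1 and Srxn1 and the highest in Gclc and Gsr. The same library had the fewest microglia and reactive glia marker CPM of its group (189 and 330) and the most rod CPM (54024). Replicate 1, the highest in Gpx1, Prdx1 and Txnrd1, had 332 CPM of microglia markers and 37239 CPM of rod genes. The part of changed cell makeup in the members' changes was not tested. Over the 9 libraries, the log2 CPM of Gpx1 and Prdx1 had a Pearson r of 0.97, and Gclc and Gclm had -0.12. Among 13401 genes, those most like Gpx1 over the same 9 libraries were Itga6 (r = 0.99), Vat1l (0.99), Mpeg1 (0.99), Pbxip1 (0.99) and Npc2 (0.99). Such values rest largely on the 3 groups and are given as description.

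A list held 90 other genes of these pathways, of which 84 passed the filter. With light damage 27 of these 84 were called higher and 6 lower, and in A74 against light damage 4 were called higher and 19 lower. Over all genes, 13.0% were called higher and 12.8% lower with light, and 9.07% higher and 9.19% lower in A74 against light damage. With Y-linked transcripts as a term, 2 and 5 were called in the latter comparison, and with A74 replicate 1 and light damage replicate 3 dropped, 8 and 22. With those libraries dropped, 2258 of 17272 genes were called higher and 2198 lower, beside 1566 and 1587 in the main fit. Against control, the A74 group had 1 higher and 1 lower, beside 0.591% and 0.301% of all genes.

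Among 14 regulators of NRF2, 3 rose with light and 1 fell (median log2 fold change -0.04). The share called was 28.6%, and 14.3% in A74 against light damage, near the 25.8% and 18.3% of all genes, so the genes below are given one by one and not as a response of the list. Those that rose were Maff (1.30, SE 0.28, edgeR adjusted p = 0.00274) and Mafk (0.67, SE 0.13, edgeR adjusted p = 0.00183), small MAF partners of NRF2, and Sqstm1, the p62 adaptor that binds KEAP1 (0.32, SE 0.06, edgeR adjusted p = 0.000617). Maff rests on few reads, at 1.03 CPM in control, 2.56 with light damage and at most 51 counts in a library. Mafg, the most abundant of the small MAF genes in counts, went from 160 ± 3.17 to 117 ± 5.64 CPM (SD, n = 3) and fell by 0.46 (edgeR adjusted p = 4.67e-05). In A74 against light damage Mafg was higher (0.18, edgeR adjusted p = 0.0380) and Sqstm1 lower (-0.22, edgeR adjusted p = 0.0108). Mafk and Mafg were the genes called in A74 against control, at 0.88 (edgeR adjusted p = 0.00446) and -0.28 (edgeR adjusted p = 0.0272). For Keap1, which the naming rule does not cover and which was picked with its values in view, light damage gave 0.02 (edgeR adjusted p = 0.888).

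Of 18 measured genes listed as other NRF2 targets, 6 rose with light and none fell (median 0.16), a share called of 33.3% beside 25.8% of all genes. The list came from general knowledge, and whether NRF2 raises or lowers each gene in retina was not tested. For A74 against light damage the share was 27.8%, beside 18.3% of all genes. Ephx1, a microsomal epoxide hydrolase, rose by 0.88, Txnip, an inhibitor of thioredoxin, by 0.58, the pentose phosphate enzyme Tkt by 0.31 and Slc3a2, the heavy chain of the cystine transporter, by 0.30. In A74 against light damage 4 were lower and 1 higher. Slc7a11, the cystine-carrying light chain that feeds glutathione synthesis, went from 32.4 ± 7.25 to 16.6 ± 3.24 CPM (SD, n = 3; log2 fold change -0.97, edgeR adjusted p = 0.00538), and its light change of 0.50 was not called (edgeR adjusted p = 0.0614). Ephx1 had -0.95, Tkt -0.22 and Slc3a2 -0.18. Trib3, a stress-induced pseudokinase, was the one that was higher (0.69, edgeR adjusted p = 0.0157).

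Of 29 other glutathione genes measured, 10 rose with light and 2 fell (median 0.23), and 9 were lower and none higher in A74 against light damage (median -0.16). The shares called were 41.4% and 31%, beside 25.8% and 18.3% of all genes. Gpx8, a peroxidase of the endoplasmic reticulum, went from 10.2 ± 1.52 to 21.8 ± 4.94 CPM with light (SD, n = 3; log2 fold change 1.09, edgeR adjusted p = 0.000248) and was lower with A74 (-1.04). The glutathione transferases Gstt1 and Gstm1 rose by 0.85 and 0.54 and had -0.69 and -0.55 with A74 against light damage. Slc25a39, which carries glutathione into mitochondria, had 0.39 and -0.39. Gss, which completes glutathione synthesis, fell by 0.26 (edgeR adjusted p = 0.0151) and Glrx2, a mitochondrial glutaredoxin, by 0.20 with light (edgeR adjusted p = 0.0323). Glutathione transferases are a family of close copies, among which reads may be shared.

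Of 19 other thioredoxin and peroxiredoxin genes, 6 rose with light and 3 fell (median 0.17), and in A74 against light damage 4 were lower and 2 higher. The shares called were 47.4% and 31.6%, beside 25.8% and 18.3% of all genes. Prdx6, a peroxiredoxin that uses glutathione, went from 152 ± 17.3 to 277 ± 43.5 CPM (SD, n = 3; log2 fold change 0.87, edgeR adjusted p = 0.000721) and had -0.87 with A74 (edgeR adjusted p = 0.00134). Prdx5, found in mitochondria and peroxisomes, rose by 0.50 and had -0.33 with A74. Txn1 and Prdx2 were the other genes lower with A74, at -0.32 and -0.28. The genes that fell with light were Nxnl1 (-0.58), Nxnl2 (-0.47) and Sesn3 (-0.24). Nxnl1 and Nxnl2 encode the rod-derived cone viability factors, thioredoxin-like proteins of photoreceptors, and were higher with A74, by 0.42 and 0.33. Of the 14 rod genes, 10 were called lower with light and 11 higher with A74 against light damage, and their part in the result was not tested. Of 4 peroxide and superoxide enzymes, Cat, the peroxisomal catalase, and Sod1 rose with light, by 0.41 and 0.24, and Cat was lower with A74 (-0.41, edgeR adjusted p = 0.0134). In so short a list the shares called were 50% and 25%, beside 25.8% and 18.3% of all genes (medians 0.18 and -0.25).

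**Figure D4:**
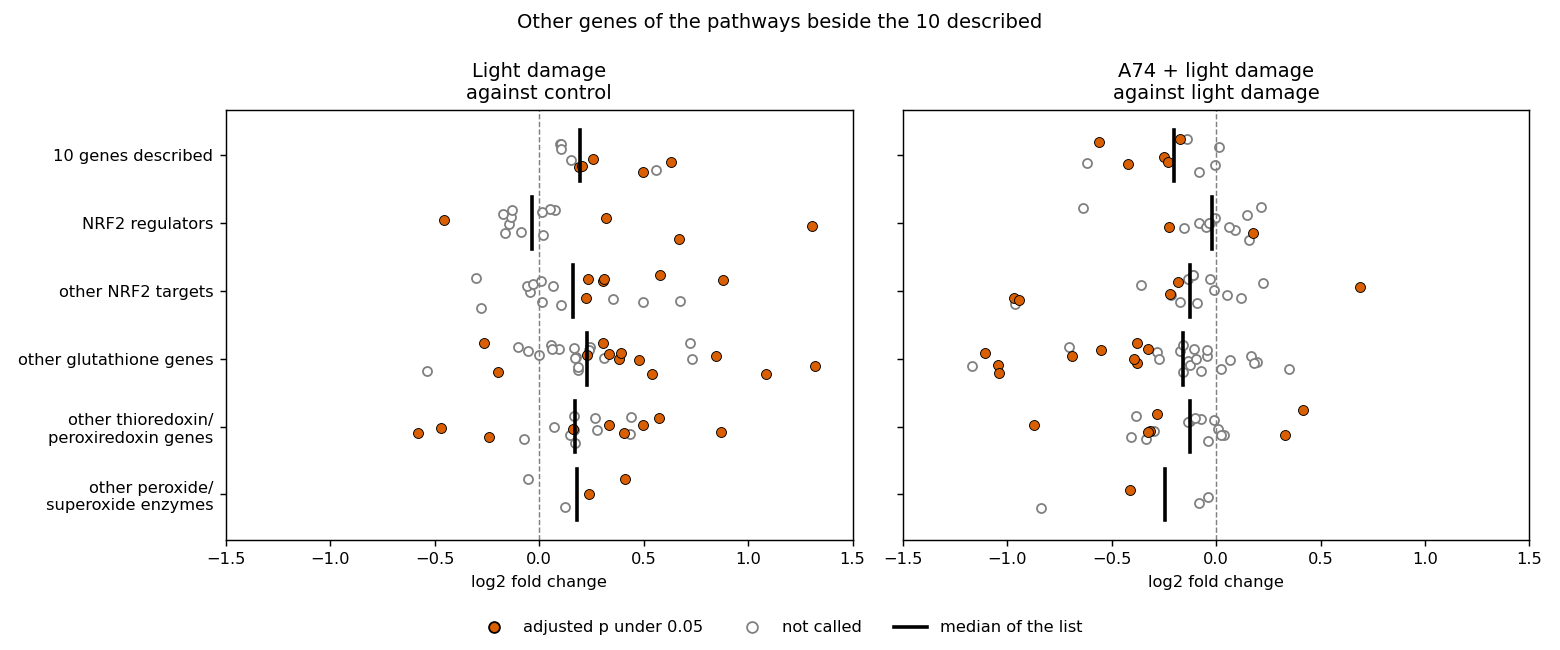
Log2 fold change of each measured gene of the 10 described and of 5 lists of other pathway genes, for light damage against control (left) and A74 with light damage against light damage (right); filled points have an adjusted p under 0.05 and bars are list medians. The medians with light run from -0.04 for NRF2 regulators to 0.23 for other glutathione genes.

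P2rx7, the receptor of the series title, had 0.469 ± 0.256 CPM in control, 1.61 ± 0.558 with light damage and 0.648 ± 0.169 in the A74 group (SD, n = 3), from 3 to 36 counts in a library. It rose with light (log2 fold change 1.74, edgeR adjusted p = 0.00648) and in the A74 group stood at 0.406 times the light damage level (edgeR adjusted p = 0.0325).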

How the data were processed

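Retinal RNA of 9 mouse libraries was measured. The values are raw counts per gene in a table the authors deposited: whole numbers whose totals differ between libraries. Per the submitters' processing notes, the tools were RSEM 1.3.1, Bowtie2 and DESeq2 1.4.5 and the build GRCm39, with no role stated. For strand and annotation release, the sources used here give nothing. If the counts are rounded RSEM estimates, reads are divided between similar genes.

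Groups came from the sample titles. After filterByExpr (minimum count 10) and TMM scaling, edgeR 4.0.16 (R 4.3.3) gave the tests (robust quasi-likelihood test, 1 fit of 9 libraries, Benjamini-Hochberg over 17272 genes, called at an adjusted p under 0.05). SE is the log2 fold change over the root of F. Log2 CPM used a prior count of 2. Every pair of replicates differed beyond sampling noise by a chi-square comparison. In simulated data for light damage against control on 17272 genes, 97% of 2-fold and 71% of 0.5 log2 changes were recovered. These changes were placed only in genes with high mean counts, a range that leaves out Nqo1. The other 17072 genes were left unchanged, while 25.8% of genes were called in the data. Adjustment over all genes therefore acts differently in the simulation, and its recovery rates need not hold for the data. Changes below 0.5 log2 were not simulated, so recovery of the smaller member changes is not known.

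The members and lists were chosen with earlier results of these data known. Named from the lists were up to 4 called genes with the smallest adjusted p per comparison, and any that were 1 of 5 or fewer in a count. Predicted genes, clones and pseudogenes were left out of the likeness ranking. Alternatives were DESeq2 1.42.0, DESeq2 size factors, no filter, 2 groups alone, a replicate block, each library left out, and Y-linked or anterior tissue terms. Ratios, TGANTCA and the counts of other pathway genes under the alternatives were added after the data were seen. Replicate numbers are those of the sample titles, and in the light damage and A74 groups they differ from the numbers in the library names. They were not taken to pair libraries.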

Additional observations from a re-analysis of the deposited data

How the results depend on the processing

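Of 520 refits of single members, 476 kept their direction and side of the threshold, 30 kept the direction and lost the call, and 14 changed sign, all of the last in changes that were not called. For light damage against control these include the 2 against 2 among libraries with Y-linked transcripts. The comparisons without Y-linked transcripts, with 1 light damage or control library, are not among them. Members called with light damage against control were 3 by DESeq2 and 3 to 5 without 1 library (3 without control replicate 1 or light damage replicate 1 or 2). In A74 against light damage they were 2 with the Y-linked term and 2 to 5 without 1 library (2 without light damage replicate 2, 3 without A74 replicate 2 or 3 or light damage replicate 1), and in A74 against control 0 throughout (0 to 0). The fit with the replicate number as a block called 5, 4 and 0 members in these comparisons; same-numbered libraries deviated together over 0.1 in 6 of 9 pairs (r from -0.09 to 0.31) and not every library matched its own number best, so the numbers were taken only as names. All genes called were 2842 (light damage replicate 2 out) to 5395 (light damage replicate 3 out) with light, and 1731 (light damage replicate 1 out) to 4448 (light damage replicate 3 out) in A74 against light damage, with 745 under the Y-linked term. Against control, A74 gave 154 as reported and 322 by DESeq2, 940 without light damage replicate 3 and A74 replicate 1, 718 with no filter, 551 with the 2 groups alone, 96 with the Y-linked term, and 21 (A74 replicate 2 out) to 426 (light damage replicate 3 out). Other pathway genes called were 23 (control replicate 1 out) to 46 (light damage replicate 3 out) with light, and 15 (A74 replicate 2 out) to 33 (light damage replicate 3 out) in A74 against light damage, where the Y-linked term gave 7. For A74 against control they were 7 without both libraries, 4 with no filter, 4 with the 2 groups alone, 1 with the Y-linked term, and 1 (A74 replicate 2 out) to 4 (light damage replicate 3 out). The cause of these shifts was not tested.

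The sign changes were as follows, on the log2 scale. In A74 against control, Gpx4 had -0.068 without control replicate 3 (-0.068 to 0.085 without 1 library). Nqo1 had 0.036 with the anterior term, 0.18 with the Y-linked term, 0.0022 without A74 replicate 3 and 0.13 without control replicate 1 (-0.27 to 0.13 without 1 library). In A74 against light damage, Gclc had -0.020 with the anterior term, -0.060 with the Y-linked term, -0.039 without A74 replicate 3, and -0.032 and -0.023 without light damage replicates 1 and 2 (-0.039 to 0.095 without 1 library). Gpx4 had 0.0034 with the Y-linked term. Gsr had 0.016 without light damage replicate 3 and A74 replicate 1, 0.029 without A74 replicate 3 and 0.034 without light damage replicate 3 (-0.051 to 0.034 without 1 library). Depth limits Nqo1 most, at 26 to 78 counts.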
